A study of Sus scrofa with 6 samples.

Results

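The lncRNAs described here are 274 pig long non-coding RNAs (lncRNAs) that the study assigned to a single somatic tissue after birth, read in ovary samples that were no part of that assignment. They are the transcripts in the readable rows of the study's tissue list whose tissue is exactly one of lung, kidney, spleen, muscle, heart, liver or adipose. The 274 were taken from 10813 lncRNAs and 32420 features in all, and from 962 readable rows of the list. These rows are only a part of the study's full list. They comprised 68 lung, 60 kidney, 36 spleen, 34 muscle, 30 heart, 23 liver and 23 adipose lncRNAs. The study built the list from other samples, on postnatal tissues, by a cutoff on the Z score across tissues and a minimum RPKM, and the muscle list takes in several postnatal stages. A lncRNA on one tissue's list can therefore still be transcribed elsewhere at a lower level.

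The samples were 6 ovaries at 49 days post coitus. Of these, 3 came from Meishan, a Chinese breed of pig with large litters, and 3 from Large White, a breed of European origin. No treatment or engineered allele is named for either breed, and the labels do not say whether a sample is 1 animal or a pool. The study's methods speak of 3 individuals as biological replicates for its tissue samples, and neither they nor the labels say so separately for these ovaries. If the samples are not separate animals, a p-value measures only a technical spread. Total RNA was depleted of ribosomal RNA and sequenced as strand-specific paired-end libraries. The level of a lncRNA is its RPKM, the reads on it relative to its length and to the mapped reads of the library.

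LncRNAs are RNA polymerase II transcripts, usually capped and spliced like mRNAs, that do not code for a protein. Many are made in few tissues and at low levels, which makes them useful as marks of a cell type. Some lie between genes and others lie in the introns of a protein-coding gene or on its opposite strand. A transcript of the opposite strand is called antisense, and some antisense lncRNAs share a promoter region with the gene or act on its expression.

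The depth was similar in all libraries, between 35185781 and 39033204 mapped reads, of which 36.6% to 46.3% fell on the listed features. At this depth 3 reads on a transcript of 1 kb gave an RPKM of 0.0769 to 0.0853, and on a shorter transcript the same reads give a proportionally higher RPKM. A lncRNA listed at 0 may lie anywhere below the floor of its length, which covers counting error only. The library of Meishan replicate 3 stood apart from the others. Over the 14902 features tested, its correlation with the other libraries was 0.865 to 0.888, against 0.932 to 0.975 among the other 5. The counts of lncRNAs that were on or called are therefore also given without it.

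The labels name the tissue as ovary and do not say whether it is the ovary of the fetus or of the pregnant sow. Markers of germ cells were low, with 3 of the 5 that could be paired on. DDX4, an RNA helicase of the germ line, had an RPKM of 0, 1.58 and 0.466 in the Meishan samples and of 0.318, 0.374 and 0.0375 in the Large White samples. TFAP2C, a factor of primordial germ cells, was listed at 0 in 4 of 6 samples and was at most 0.0373. The meiosis genes SYCP3, at 0.645 to 1.75, and STRA8, at 0.686 to 1.87, were low but on in all 6 samples. KIT, a receptor of germ cells and of other ovarian cells, was at 1.68, 1.99 and 7.77 in Meishan and at 16.6, 14.8 and 16.9 in Large White.

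CYP11A1, the enzyme of the first step of steroid synthesis, stood among the highest genes of every library, at rank 6 to 36 of the protein-coding genes. Its RPKM was 1299, 1416 and 506 in Meishan, beside 1882, 1785 and 1655 in Large White. GATA4, a factor of gonadal somatic cells, lay between 18.1 and 30.4 in the 6 samples. It was 1 of 4 paired markers of supporting cells, of which 2 were on. The other one on, AMHR2, lay between 0.239 and 3.22, while IRX3 was at most 0.358 and LGR5 at most 0.106. The samples are therefore called ovary samples here, with no statement on the stage of the ovary. Markers such as FOXL2, DAZL and STAR could not be paired with an identifier.

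Of the 274 lncRNAs, 62 (22.6%) were on in the ovary samples, which here means that they reached an RPKM of 0.5 in 3 or more of the 6 samples. Over all lncRNAs the share was 14.0% (1514 of 10813). Among the readable rows of the study's list, it was 46.6% (54 of 116) for postnatal ovary lncRNAs and 14.1% (70 of 498) for testis lncRNAs. Another 137 of the 274 were above 0 in some sample without being on, and 75 (27.4%) were listed at 0 in all 6 samples, against 42.9% of all lncRNAs. The median of the mean RPKM was 0.0973 over the 274 and 0.0186 over all lncRNAs. The comparison with all lncRNAs is not like for like. A listed lncRNA had to reach a minimum RPKM in a tissue of the study, which was not required of all lncRNAs. These shares describe the lists and were not tested against each other.

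By list, the share that was on was highest for muscle and lung and lowest for heart. In the muscle list 11 of 34 (32.4%) were on, in the lung list 21 of 68 (30.9%) and in the liver list 6 of 23 (26.1%). The kidney list had 12 of 60 (20%) on, the adipose list 4 of 23 (17.4%), the spleen list 6 of 36 (16.7%) and the heart list 2 of 30 (6.67%). The order was another one for lncRNAs listed at 0 in all samples. Their share was 47.8% in the adipose list (11 of 23) and 43.5% in the liver list (10 of 23), but 16.7% in the kidney list (10 of 60) and 20.6% in the lung list (14 of 68).

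The order of the lists depended on single libraries. Without Meishan replicate 3 the muscle list had 7 of 34 on (20.6%) and the lung list 17 of 68 (25%), so muscle no longer came first. The others then had 4 of 23 liver (17.4%), 5 of 36 spleen (13.9%), 8 of 60 kidney (13.3%), 3 of 23 adipose (13.0%) and 2 of 30 heart lncRNAs (6.67%). Leaving out Meishan replicate 2 also left 7 of 34 on in the muscle list, beside 18 of 68 in the lung list.

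**Figure D1:**
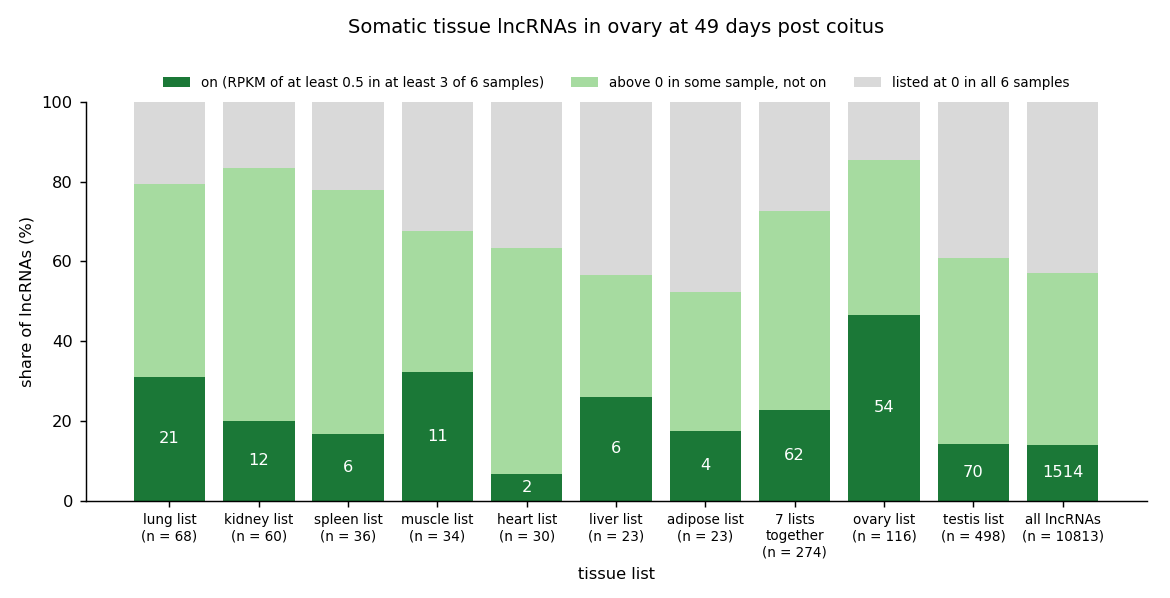
Stacked bars give the share (%) of each list's lncRNAs that were on (dark green, with the number written in), above 0 in some sample but not on (light green), or listed at 0 in all 6 samples (grey). The 7 somatic lists together were on at 22.6%, between all lncRNAs (14.0%) and the ovary list (46.6%), and the heart list was lowest at 6.67%.

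The number of the 274 with an RPKM of at least 0.5 differed between libraries. It was 57, 60 and 74 in the Meishan samples and 51, 40 and 62 in the Large White samples, with the highest number in Meishan replicate 3 and the lowest in Large White replicate 2. All lncRNAs showed the same extremes, with 1724 in Meishan replicate 3 and 1323 in Large White replicate 2. Without Meishan replicate 3, 46 of 274 (16.8%) were on by the same rule in the other 5 samples, against 11.9% of all lncRNAs. Of the 62, 22 (35.5%) reached the limit in all 6 samples, 6 in 5, 15 in 4 and 19 in exactly 3. The corresponding share in all 6 samples over the 1514 lncRNAs that were on was 43.6%.

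The share that was on also differed by position relative to genes. By the study's classes, 7 of 13 antisense and 10 of 22 intronic members were on, against 5 of 25 in cis-regulatory regions and 40 of 214 intergenic ones. The other lncRNAs of the tissue list were ordered similarly at the ends, with 21 of 34 antisense and 76 of 522 intergenic lncRNAs on. The readable annotation rows held 56 of the 274 members. A CpG island was noted for 18 of these, of which 10 were on, and for 38 it was not, of which 12 were on. DNA-level conservation did not order them in a simple way, since 6 of 19 conserved in human and mouse, 7 of 16 conserved in mouse alone and 8 of 18 not conserved were on.

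The most abundant member was TCONS_00077996 of the adipose list. It lies at chr1:242502056-242534435 on the minus strand (Sscrofa10.2) with 3 exons and a spliced length of 394 nt, intronic and antisense to the protein-coding gene ENSSSCG00000005216, for which no symbol was paired. Its RPKM was 34.8, 42.0 and 17.0 in Meishan, beside 70.0, 78.0 and 68.6 in Large White. It ranked between 5 and 30 among all lncRNAs of a library, and made up 91.8% of the summed RPKM of the adipose list. Of its 394 bases, 179 (45.4%) are shared on the same strand with other lncRNAs of the annotation. How this affects its level was not tested. All 3 Large White samples lay above all 3 Meishan samples, and Meishan replicate 3 was the lowest.

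The other adipose lncRNAs that were on lay far below it. TCONS_00111414 was at 1.52, 1.12 and 3.41 in Meishan and at 1.92, 1.43 and 1.33 in Large White. TCONS_00040332, in the cis-regulatory region of PTGR1, a prostaglandin and leukotriene reductase, was at 2.32, 2.28 and 1.07 in Meishan and at 0.778, 1.42 and 0.927 in Large White. For both, the ranges of the breeds overlapped. TCONS_00148522, antisense to the homeobox gene HOXB3, was the fourth, at 0.326 to 1.17 over the 6 samples.

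In the kidney list the highest lncRNA was TCONS_00141913, an intergenic transcript. Its RPKM was 42.5, 21.5 and 10.9 in Meishan, beside 11.98, 14.6 and 10.6 in Large White, and it made up 49.5% of the summed level of its list. Meishan replicates 1 and 2 lay above every other sample, while Meishan replicate 3 fell within the range of the Large White samples. TCONS_00092618 was at 4.46, 4.32 and 5.97 in Meishan and at 4.90, 1.99 and 3.69 in Large White. TCONS_00009092, in an intron of RARS2, a mitochondrial arginyl-tRNA synthetase, on its sense strand, was at 3.45, 1.20 and 2.55 and at 0.455, 1.33 and 2.96. The breeds overlapped for all 3.

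TCONS_00144403 led the lung list. It is a transcript of 3 exons at chr12:33716-36151 on the plus strand, antisense to OGFOD3, which encodes a dioxygenase-like protein. Its RPKM was 23.0, 22.0 and 6.78 in Meishan, beside 18.1, 20.4 and 14.9 in Large White, so Meishan replicate 3 was 3.39-fold below the highest sample. The intergenic TCONS_00129938 was at 3.26, 8.96 and 7.62 in Meishan and at 3.83, 2.65 and 3.51 in Large White. The intergenic TCONS_00129937 was at 7.20, 2.72 and 4.98 and at 4.72, 0.973 and 6.73. Although their identifiers are consecutive, their highest samples were different ones, Meishan replicate 2 for the former and Meishan replicate 1 for the latter.

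Among the muscle lncRNAs, the most even was TCONS_00106264, at chr10:19852146-19854297 on the minus strand and antisense to ADSS, an enzyme of purine synthesis. It was at 7.06, 7.39 and 4.04 in Meishan and at 5.52, 6.63 and 6.71 in Large White. TCONS_00028410 was at 5.02, 4.05 and 6.17 and at 6.68, 6.11 and 3.15. TCONS_00017380 was at 0.736, 1.71 and 2.07 and at 1.64, 0.822 and 0.722. The first 2 of these stayed above an RPKM of 3 in every library, and none of the 3 separated the breeds.

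Only 2 heart lncRNAs were on. TCONS_00060710, at chr1:110410366-110450286 on the minus strand, lies in an intron of ELAC1, a tRNA-processing nuclease gene, on its antisense strand. It was at 8.42, 5.84 and 5.07 in Meishan and at 8.82, 11.2 and 4.16 in Large White, and made up 72.0% of the summed level of the heart list. TCONS_00030368, in the cis-regulatory region of a 7SK RNA gene, was at 0.270, 1.06 and 0.843 and at 0.748, 2.64 and 1.85, with only 3 reads in its lowest sample.

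The spleen and liver lists held no lncRNA with a mean RPKM above 5. The highest spleen lncRNA, TCONS_00133901, was at 6.54, 2.93 and 1.55 in Meishan and at 4.55, 2.85 and 3.98 in Large White. In the liver list, TCONS_00109134 was at 3.22, 1.26 and 1.87 and at 2.10, 2.12 and 1.42. TCONS_00118666, in the cis-regulatory region of the glycosylation gene ALG11, was at 3.21, 2.37 and 0.902 and at 1.61, 1.52 and 1.84. None of these separated the breeds. TCONS_00120482, also of the liver list, ranged from 0.563 in Meishan replicate 2 to 1.86 in Meishan replicate 1.

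**Figure D2:**
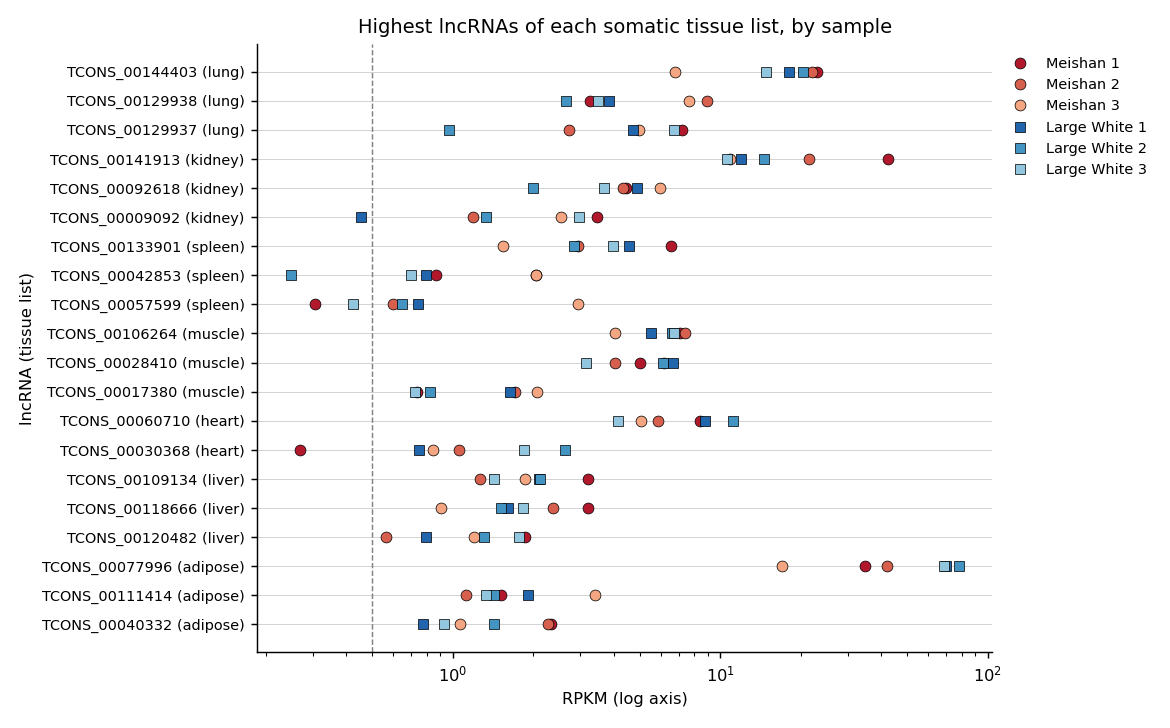
Each row is one of the up to 3 highest lncRNAs of a list, each symbol its RPKM (log axis) in one library, with circles for Meishan, squares for Large White and a dashed line at 0.5. TCONS_00077996 lies farthest right, with Large White at 68.6 to 78.0 and Meishan at 17.0 to 42.0, while for most other rows circles and squares overlap.

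The levels of the 62 lncRNAs varied between libraries by more than counting. Their median coefficient of variation over the 6 samples was 54.0%, against 17.5% from the number of reads alone, and in 56 of the 62 it was over 2 times the counting value. Over the 1514 lncRNAs that were on, the corresponding medians were 53.2% and 16.9%. The mean number of reads per sample behind a member ranged from 4.5 to 850.5, with a median of 32.5. The highest sample was Meishan replicate 3 for 17 of the 62, and the lowest was Large White replicate 2 for 19. In 12 of the 62 at least 1 library was listed at 0. Over the 62, the correlation of Meishan replicate 3 with the other libraries was 0.679 to 0.809, against 0.821 to 0.882 among the others.

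Some lncRNAs were high in a single library. TCONS_00091075 of the lung list had an RPKM of 2.48 in Meishan replicate 1, from 26 reads, and at most 0.374 elsewhere. TCONS_00121594 of the kidney list was at 2.22 in Meishan replicate 3, from 20 reads, and at 0.582 in Meishan replicate 2, and was listed at 0 in the other 4. TCONS_00040636 of the lung list, in an intron of the collagen gene COL27A1, was at 3.56 in Large White replicate 1, listed at 0 in Large White replicate 2 and at 0.562 to 0.994 in the others. The library that stood out was thus a different one for each of the 3.

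All others chosen for this pattern were spleen lncRNAs. TCONS_00057599 was at 2.95 in Meishan replicate 3, from 124 reads, and between 0.305 and 0.740 in the other libraries. TCONS_00128135 was at 1.44 in Meishan replicate 3, from 38 reads, and at most 0.476 elsewhere. TCONS_00092698 was at 7.07 in Large White replicate 2 and 2.52 in Large White replicate 3, from 59 and 21 reads, and at most 0.382 in the remaining samples. Because these are bulk samples, fewer cells of a type and less RNA per cell cannot be told apart.

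The protein-coding markers of the same 7 tissues were mostly low. Of 59 markers on the lists, 38 could be paired with an identifier, and 8 of these were on. No muscle marker (of 4) and no liver marker (of 7) was on, whereas 11 muscle and 6 liver lncRNAs were. The summed RPKM of the muscle markers was 0.0745 to 0.492 in Meishan and 0 to 0.288 in Large White, and that of the liver markers was 0.271 to 0.525 and 0.793 to 1.35. SCGB1A1 of lung, UMOD of kidney, TLX1 of spleen and MYL1 of muscle were listed at 0 in all 6 samples.

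Markers of blood and fat were present. HBB, a globin chain of red blood cells, was at 137, 41.5 and 55.7 in Meishan and at 78.1, 69.7 and 76.9 in Large White, and PTPRC, the leukocyte antigen CD45, lay between 1.79 and 2.78. The summed level of the 6 spleen and blood markers was 44.5 to 142 in Meishan and 73.7 to 81.9 in Large White. CFD, a complement factor secreted by fat cells, lay between 10.2 and 12.1 in Meishan and between 16.1 and 19.4 in Large White. The 4 adipose markers summed to 12.1 to 26.1 in Meishan and 19.2 to 22.4 in Large White, and PLIN1, a protein of lipid droplets, was at most 0.0681.

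Kidney and heart markers were low as well. The 8 kidney markers summed to 0.780 to 1.71 in Meishan and 1.31 to 2.48 in Large White. TNNT2, a troponin of heart muscle, was at 0.519 to 2.76 and 0.362 to 1.65, and the 3 heart markers summed to 0.778 to 2.76 and 0.362 to 1.65. Whether cells of these tissues contributed to the lncRNA levels was not tested.

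Meishan replicate 3 differed in several of these genes. SFTPC, a surfactant protein of the lung, was at 23.8 in it and at 0.442 to 1.07 in the other libraries. The 6 lung markers summed to 24.8 in it and to 0.792 to 1.34 elsewhere, with SFTPB and SCGB1A1 listed at 0 in it. PPARG, the regulator of fat cell formation, was at 15.4 against 0.907 to 2.82, and CYP17A1, an enzyme of androgen synthesis, at 59.2 against 1.28 to 25.7. Larger gaps were seen in the gonadal genes INHA and INSL3, which, like SCARB1 and SOX9, were chosen after their values were seen. INHA, the alpha subunit of inhibin, was at 491 in this library and at 2.05 to 4.93 in the others, and INSL3, a peptide hormone of gonadal steroid-producing cells, at 235 against 1.04 to 15.6. SOX9 was low but also highest in this library, at 1.54 against 0.139 to 0.292. SCARB1 lay the other way, at 252 against 356 to 1119. What these differences contribute to the lncRNA levels was not tested.

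The lung lncRNAs summed to 55.1 in Meishan replicate 3 and to 62.3, 58.5, 53.7, 41.2 and 50.3 in the other samples. Without the highest of them, TCONS_00144403, which was lowest in Meishan replicate 3, that library had the highest sum, 48.4 against 39.3, 36.5, 35.6, 20.8 and 35.4. It also had the most lung lncRNAs at an RPKM of 0.5 or more, 26 against 14 to 23. Neither was particular to the lung list. Without their highest lncRNA, the kidney, spleen, muscle, heart and adipose lists also had their highest sums in this library. For the kidney list this was 29.8 against 8.69 to 22.4. The liver list did not. The library also had the most lncRNAs at that limit over the 274, at 74, and over all lncRNAs, at 1724.

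The breeds were compared with limma over the 14902 features that were on, with Benjamini-Hochberg adjustment, and a feature was called at an adjusted p under 0.05 and a fold change of at least 2. Fold changes are on the log2(RPKM + 1) scale, Meishan minus Large White, which understates the change of low lncRNAs. None of the 62 lncRNAs was called, against 0.758% of all features (113 of 14902) and 0.925% of all lncRNAs (14 of 1514). At an unadjusted p under 0.05 there were 8 of 62, against 14.7% of lncRNAs and 15.9% of all features. Of these, 6 were higher in Meishan, beside 7.73% of lncRNAs and 6.29% of all features, and 2 were lower, beside 6.94% and 9.60%. By limma-voom on the recovered reads 0 were called and 6 had an unadjusted p under 0.05. Without Meishan replicate 3, 10 of 46 had an unadjusted p under 0.05 in limma, against 20% of lncRNAs and 20.8% of all features. The filter can be passed through one breed alone, as it was by the kidney lncRNA TCONS_00116651 in the 3 Meishan samples, so these counts cover the lncRNAs that were on and not the full list of 274.

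For 9 of the 62 (14.5%) the values of the breeds did not overlap, 7 with Meishan higher and 2 with Meishan lower. Such separation was found for 18.0% of the lncRNAs and 23.6% of all features tested, with Meishan higher for 10.4% and 9.94% and Meishan lower for 7.60% and 13.6%. The fold change was above 0 for 41 of 62 (66.1%), against 58.1% of lncRNAs and 47.0% of all features. The median log2 fold change was 0.11, beside 0.09 over the lncRNAs and -0.03 over all features. No member was above 0 in the 3 samples of one breed and listed at 0 in the 3 of the other, a pattern that 0.647% of all lncRNAs showed toward Meishan and 0.287% toward Large White.

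**Figure D3:**
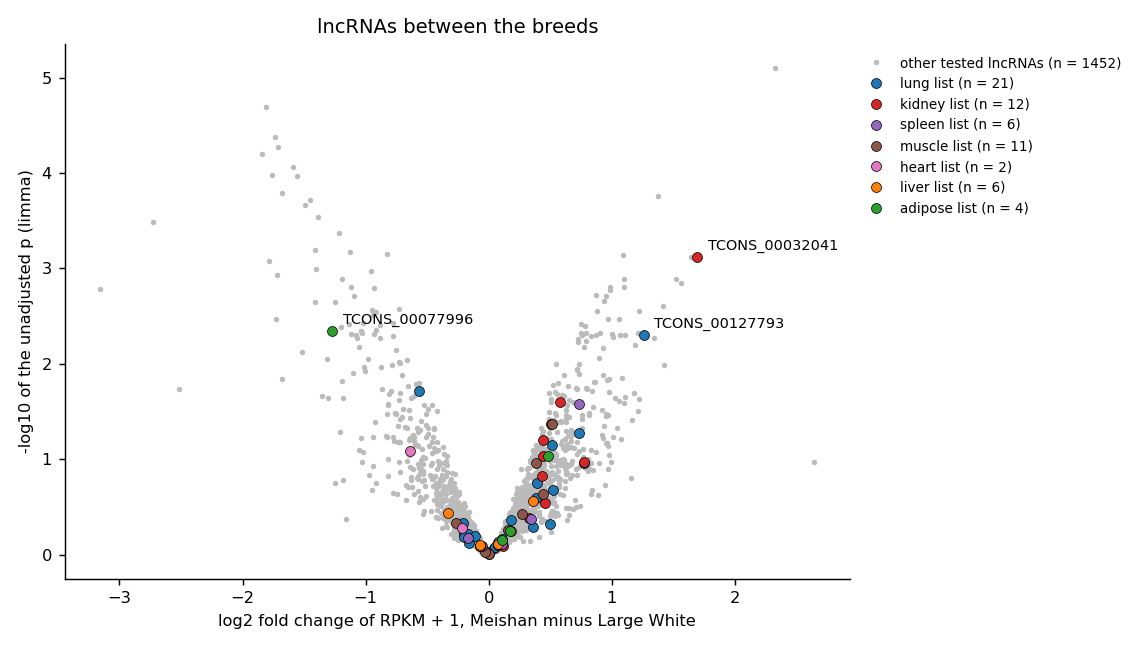
Each point is a tested lncRNA, with its log2 fold change (x axis, right is higher in Meishan) and the -log10 of its unadjusted limma p (y axis). Coloured points are the 62 somatic tissue lncRNAs by list and grey points the other lncRNAs, and TCONS_00032041 (1.69) and TCONS_00077996 (-1.27) lie farthest out among the coloured points.

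The kidney lncRNA TCONS_00032041 came nearest to a call. It spans chr1:224709608-224912497 on the plus strand in 3 exons and is antisense to ENSSSCG00000026838. The annotation names that gene IFN-ALPHA-8, an interferon, but classes it as a processed transcript, and no RPKM was listed for it. TCONS_00032041 was at 2.06, 2.31 and 5.26 in Meishan, from 36, 41 and 98 reads. In Large White it was at 0.536, 0 and 0.225, from 9, 0 and 4 reads. The Meishan samples all lay above the Large White samples, with means of 3.21 ± 1.78 and 0.254 ± 0.269 (SD, n = 3 each). The log2 fold change was 1.69 with an SE of 0.316 (limma, adjusted p = 0.0667). Without Meishan replicate 3 it was 1.37 with an adjusted p of 0.0398 in limma, and this lncRNA alone was called, against 1.67% of all features and 2.40% of lncRNAs in the same fit.

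TCONS_00077996, described above, lay the other way. The means were 31.3 ± 12.9 for Meishan and 72.2 ± 5.09 for Large White (SD, n = 3 each), and the log2 fold change was -1.27 with an SE of 0.321 (limma, adjusted p = 0.134). Without Meishan replicate 3, its lowest sample, the limma fold change was -0.90 with an adjusted p of 0.0390, which is below the fold limit. CYP11A1 lay in the same order, with 506 to 1416 in Meishan and 1655 to 1882 in Large White.

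The lung lncRNA TCONS_00127793, an intergenic transcript, was at 5.96, 3.23 and 6.03 in Meishan and at 2.78, 0.831 and 1.19 in Large White. The breeds did not overlap, and the log2 fold change was 1.26 with an SE of 0.324 (limma, adjusted p = 0.139). TCONS_00003240, also of the lung list, was lower in every Meishan sample, at 0.605, 0.992 and 0.567 against 1.36, 1.77 and 1.48, from 6 to 18 reads a library. Its log2 fold change was -0.57 with an SE of 0.192 (limma, adjusted p = 0.226).

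Smaller differences were seen for a kidney and a spleen lncRNA. TCONS_00070617 of the kidney list was at 1.01, 1.56 and 0.884 in Meishan and at 0.580, 0.286 and 0.440 in Large White, from 51 to 276 reads a library, and its log2 fold change was 0.58 with an SE of 0.209 (limma, adjusted p = 0.245). TCONS_00042853 of the spleen list, in an intron of PTGES2, a prostaglandin synthase gene, on its antisense strand, was at 0.864, 2.05 and 2.05 and at 0.792, 0.248 and 0.698. Its log2 fold change was 0.73 with an SE of 0.267 (limma, adjusted p = 0.248). In both, every Meishan value lay above every Large White value, but for TCONS_00042853 the nearest values, 0.864 and 0.792, were close.

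**Figure D4:**
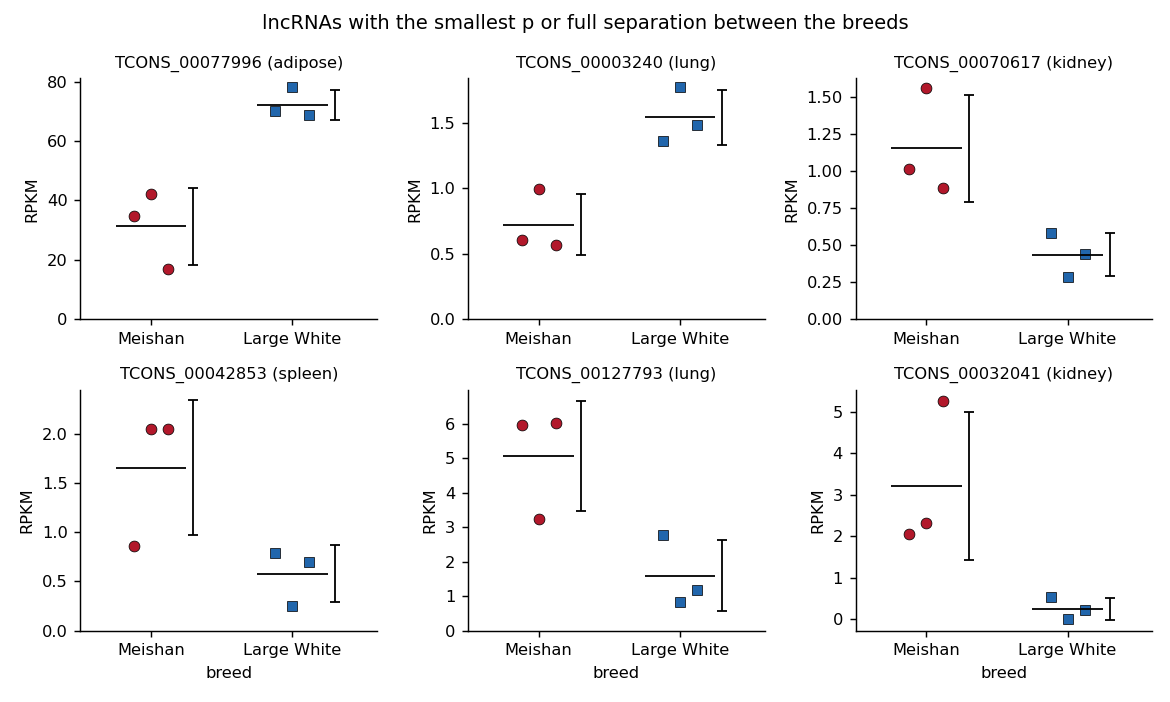
Each panel gives the RPKM of one lncRNA in the 3 Meishan (circles) and 3 Large White (squares) samples, with the mean as a horizontal line and the SD as the bar beside it. The values of the breeds do not overlap in any of the 6 panels, and with all samples in the fit the adjusted p of the 6 differences was 0.0667 to 0.248.

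By list, the kidney lncRNAs had the highest share with Meishan higher. Of the 12 that were on, 11 had a fold change above 0, against 58.1% of lncRNAs and 47.0% of all features. Their median log2 fold change was 0.44. The values of the breeds did not overlap for 18.0% of lncRNAs and 23.6% of all features. In the kidney list they did not for 4 of 12 (33.3%), all with Meishan higher. These were TCONS_00032041, TCONS_00070617, TCONS_00069730 and TCONS_00116651, and the last of them was at 0.521, 0.582 and 1.07 in Meishan and at 0.197, 0.231 and 0.186 in Large White. It passed the filter through the Meishan samples alone and so had to differ, and without it 10 of 11 had a fold change above 0 and 3 separated the breeds. The last 2 named were chosen after their values were seen. Without Meishan replicate 3, 8 of 8 kidney lncRNAs had a fold change above 0, against 56.0% of lncRNAs and 47.2% of all features, and without Large White replicate 2, 9 of 12 did. None of the 12 was called, and the difference between the lists was not tested.

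Summed over all 60 kidney lncRNAs, whether on or not, the RPKM was 61.7, 43.9 and 40.7 in Meishan, beside 28.8, 23.3 and 28.4 in Large White. Without the highest of them, TCONS_00141913, the sums were 19.1, 22.4 and 29.8 and 16.8, 8.69 and 17.8. The breeds did not overlap in either sum. For the 274 together the sums overlapped, at 220, 197 and 172 in Meishan, beside 206, 204 and 198 in Large White. This overlap depended on TCONS_00077996, the highest of the 274. Without it every Meishan sum was higher, 155 to 185 against 126 to 136. Over all lncRNAs without their highest, TCONS_00077979, the Meishan sums were also higher, 5171 to 5804 against 5042 to 5115. That gap was relatively smaller than in the kidney list. With TCONS_00077979 the sums over all lncRNAs overlapped, at 6029 to 8295 in Meishan and 7979 to 9773 in Large White. Higher sums in Meishan were thus not particular to the kidney list once the highest lncRNA was left out. The kidney marker genes did not lie higher in Meishan, as their sums given above show.

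The other lists had few differences in single lncRNAs. In the lung list 13 of 21 had a fold change above 0 and 2 separated the breeds, in opposite directions. The muscle list had 6 of 11 above 0, the liver list 3 of 6 and the spleen list 5 of 6, with 1, 0 and 1 that separated. In the heart list both lncRNAs had a fold change below 0, and their breeds overlapped. By summed RPKM the lung list separated the breeds as the kidney list did, with Meishan at 55.1 to 62.3 against 41.2 to 53.7. Without TCONS_00144403 the lung sums were 36.5 to 48.4 against 20.8 to 35.6. The adipose sums separated the other way, with Meishan at 23.6 to 46.1 against 72.2 to 81.3, but overlapped without TCONS_00077996. The spleen, muscle, heart and liver sums overlapped. Of the 8 tissue marker genes that were on, limma called 0 between the breeds, with 1 at an unadjusted p under 0.05, and the smallest adjusted p was 0.118.

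A proximal protein-coding gene was listed for 52 members, 51 genes in all. Of these genes 38 (74.5%) were on, against 62.0% of all protein-coding genes. The gene was on for 19 of the 20 members that were themselves on, and for 20 of the 32 that were not. Between the breeds limma called 0 of the 38 genes, with 6 at an unadjusted p under 0.05 and a smallest adjusted p of 0.142.

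In some pairs the lncRNA and its gene moved together across the libraries. The clearest was TCONS_00106264 with ADSS, where the lncRNA was 26.2% to 30.9% of the RPKM of the gene in every sample. The ratio had a coefficient of variation of 5.72%, near the 4.89% that counting gives for the lncRNA alone at a mean of 418 reads, whereas the lncRNA itself varied by 19.95%. TCONS_00144403 was 30.0% to 39.5% of OGFOD3, and the ratio varied by 9.32% against 34.3% for the lncRNA. The low value in Meishan replicate 3 was thus shared by the gene, which ranged from 21.0 to 65.4. Both lncRNAs are classed as antisense to their gene. How far reads of the gene assigned to the other strand enter their values was not tested.

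The gene of TCONS_00077996, ENSSSCG00000005216, had the highest RPKM of all protein-coding genes in every library. It was at 9578, 9669 and 3538 in Meishan and at 17095, 20361 and 13820 in Large White, and the lncRNA was 0.364% to 0.496% of it. This ratio varied by 12.3%, against 46.5% for the lncRNA and 48.8% for the gene, so the separation of the breeds was shared by both transcripts. How far reads of the gene assigned to the other strand enter the value of the lncRNA was not tested. TCONS_00040332 was 4.79% to 9.34% of PTGR1, with a ratio that varied by 21.8%.

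Other pairs did not keep a ratio. TCONS_00060710 was 156% to 500% of ELAC1, above its gene in every sample, and TCONS_00118666 was 21.0% to 78.2% of ALG11, which itself varied by only 9.13%. TCONS_00009092 was 5.08% to 50.2% of RARS2. Of 21 pairs in which both were on, the ratio varied less than the lncRNA in 9. The lncRNA was below its gene in all samples in 16 of the 21 pairs. These ratios are across 6 samples of the same libraries, and a shared depth or tissue composition enters both values.

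**Figure D5:**
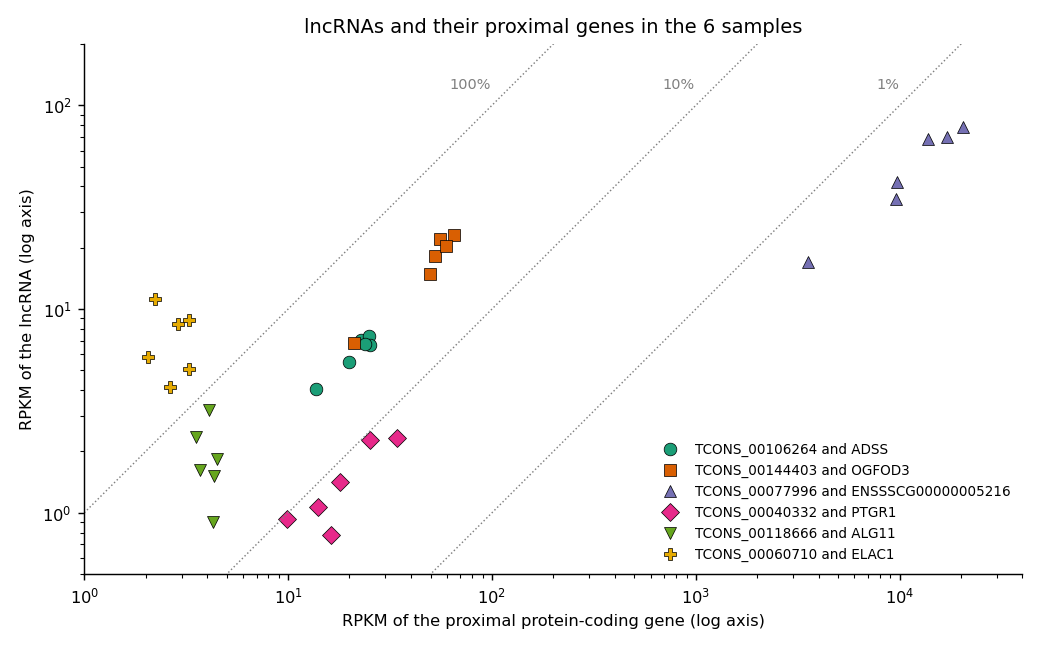
Each symbol is one library, with the RPKM of the proximal protein-coding gene (x, log axis) and of the lncRNA (y, log axis), and dotted lines mark 100%, 10% and 1% of the gene. The symbols of ADSS, OGFOD3 and ENSSSCG00000005216 run parallel to the dotted lines, at 26.2% to 30.9%, 30.0% to 39.5% and 0.364% to 0.496%, while those of ELAC1 and ALG11 scatter across them.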

How the data were processed

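RNA of 6 ovary samples, 3 per breed, was analysed, with breed and replicate taken from the labels. The authors deposited one RPKM value per feature and sample (reads relative to feature length and library size, counted on read pairs). By the study's methods these came from strand-specific counting with htseq-count, and the submitters' processing notes name TopHat2 2.1.0 and HTSeq. The methods give Sscrofa10.2 for the transcripts, and coordinates were copied from the study's annotation.

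Here the depth and the reads of each feature were recovered from the steps of the RPKM values with the annotated lncRNA lengths, and all values used came out whole within 0.01 reads. Where no annotated length was given, the recovered reads may be too few by a common factor.

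The breeds were compared with limma 3.58.1 (R 4.3.3) on log2(RPKM + 1) over features that reached an RPKM of 0.5 in 3 or more samples (lmFit, eBayes with a trend, two-sided, Benjamini-Hochberg over all 14902), as the deposited values are RPKM, in place of the study's DEGseq. Python 3.11.15, numpy 2.4.6, pandas 2.3.3 and matplotlib 3.10.9 were used for the rest.

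The members, tissue lists and marker lists were chosen with earlier results of these data known. Named are, per list, the 3 highest members on, the 5 with the smallest p and any called, the 6 with the highest sample farthest above the next (log2 ratio with 0.1 added), the 4 with the largest fold change in each direction among those that separated the breeds, and the 4 highest with a proximal gene. Further proximal genes were named after their values were seen. Symbols were paired for 11654 of 21607 gene identifiers. Alternatives were other pseudocounts, filters, scalings and detection limits, limma-voom on recovered reads, a replicate block, and leaving out each sample. Of the marker genes and of the proximal genes, 1 each is left out of the text. No sequences were read.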

Additional observations from a re-analysis of the deposited data

How the results depend on the processing

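The 6 lncRNAs with a fold change in the report were all among those whose breeds did not overlap. Leaving out a sample or changing the pseudocount or filter therefore could not reverse their direction. The direction held in all 84 alternative fits, and 2 of these fits passed the adjusted p, both without Meishan replicate 3. The number of members called was 0 in all fits but that one, where it was 1, so leaving out each sample gave 0 to 1, and 0 to 2 of the named members passed the adjusted p alone. The log2 fold change of TCONS_00032041 ranged from 1.37 to 4.26, with adjusted p of 0.0398 to 0.300, and that of TCONS_00077996 from -1.53 to -0.90, with adjusted p of 0.0390 to 0.466.

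Members on numbered 145 above 0 and 125 at 0.1 or more in 3 samples, 31 at 1 or more in 3 samples, 108 at 0.5 or more in 1 sample and 22 in all 6, and 46 to 59 with each sample left out. Members that separated the breeds numbered 15 at a minimum of 0.1, and from 8 to 17 with each sample left out, with 16 without Meishan replicate 1 and 17 without Meishan replicate 3, since 2 against 3 samples separate more easily.

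Over all features the calls fell from 113 to 62 with a pseudocount of 0.1, 6 without a filter, 78 by limma-voom and 27 with the replicate block, and were 2 to 240 with each sample left out. The labels do not tie same-numbered samples to each other. Deviations of same-numbered samples correlated at -0.042, 0.120 and 0.146, within the range of -0.242 to 0.216 for samples of other numbers. These values cannot settle whether the numbers pair the samples. With the replicate block 0 members were called and 7 had an unadjusted p under 0.05. Members with few reads, down to a mean of 4.5, are limited by depth.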
